A study of Mus musculus with 8 samples.

Results

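The nuclear-encoded subunits and assembly factors of respiratory complexes II to V, with the electron carrier cytochrome c, were described in inguinal white adipose tissue of mice lacking Lpar4. The members were taken from a list of 46 gene symbols, namely 4 complex II subunits, the complex III subunits with the assembly factor Bcs1l, cytochrome c, the complex IV subunits and 6 of its assembly factors, and the ATP synthase subunits. The list was not cut by a measured value, though it was drawn up with earlier results of these data known. Cox7a1 and Cox8b, isoforms enriched in brown fat and muscle, were kept out of the list. Of the 46 genes, 45 were measured among 18193 genes on the array, Atp5f1 through a synonym, and Cox7b was not analysed here.

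The tissue came from 4 LPA4-KO mice (Lpar4 -/Y, hemizygous for the X-linked receptor gene) and 4 WT mice. All were male C57BL/6 littermates of 12 weeks on standard chow, and each mouse gave 1 array. Lpar4 encodes a G protein-coupled receptor for lysophosphatidic acid, and the comparison asks how expression in this subcutaneous fat depot differs when it is missing. Arrays are called KO 1 to 4 and WT 1 to 4 after the replicate numbers in the labels. Values are log2 signals, differences are KO minus WT, and a gene is represented by its brightest probe set. The p-values of the main fit weigh the genotype difference against the spread among mice within each genotype, with the 8 mice taken as independent. Where the replicate number is used as a block, the spread is what is left after that number.

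Complex II (succinate dehydrogenase) passes electrons from succinate to coenzyme Q, complex III passes them on to cytochrome c, and complex IV (cytochrome c oxidase) hands them to oxygen. Complexes III and IV pump protons across the inner mitochondrial membrane, and complex V (ATP synthase) uses the returning protons to make ATP. White adipocytes hold fewer mitochondria than brown ones, but need them for the synthesis and turnover of triglyceride.

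Most deposited values hardly moved between arrays: 71.6% of the 18193 genes had an SD over the 8 arrays under 0.01 and are called near constant, and the other 5173 are called varying. Of the 45 members, 36 (80.0%) varied, against 28.4% of all genes. The 9 near-constant members were Uqcrh, Cox7c, Cox10, Cox11, Sco1, Surf1, Atp5g2, Atp5h and Atp5l, whose differences were no larger than 0.00031 in size. They were represented by probe sets that gave almost the same number on every array, and how this arose is not known here. At the edge of this limit, Atp5e varied with an SD of 0.0116.

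The 36 varying members all had a positive difference, from 0.01 to 0.34 on the log2 scale, or 1.01-fold to 1.27-fold. In limma fitted over all genes, with Benjamini-Hochberg adjustment and a threshold of 0.05, 4 of the 45 members (8.89%) were higher in KO, while 2.39% of all genes were. These 4 were Cycs, Cyc1, Sdhc and Atp5j. No member was lower (0 of 45), while 1.64% of all genes were. At an unadjusted limma p under 0.05, 30 of 45 members were higher, against 12.9% of all genes, and 2 were lower, the near-constant Cox11 and Atp5g2, against 10.1%. The near-constant Cox10, Sco1 and Atp5l were among the 30 higher. All 4 calls ended with the replicate number as a block, a fit in which 0 of the 18193 genes passed. With that block, 31 members were higher at an unadjusted limma p under 0.05 (11.7% of all genes), the near-constant Cox10 among them. The near-constant Atp5g2 was lower (8.70% of all genes).

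When limma was fitted to the varying genes alone, 16 of the 36 varying members were higher, against 14.9% of the 5173 varying genes. With the replicate block in that fit the count was 8 of the 36, against 10.3% of varying genes. The 8 members that passed both of these fits were Sdhd, Cyc1, Uqcrfs1, Uqcr11, Bcs1l, Cycs, Atp5a1 and Atp5k. Leaving out a single array moved the counts of members and of all genes. Over all genes, 0 members were higher without KO 3, when 4 of the 18193 genes were, and 2 members were higher without KO 1, WT 1, WT 3 or WT 4, when 77 to 141 genes were. Among varying genes, 3 of the 36 members were higher without KO 1 or without KO 3, when 7.31% and 6.65% of the 5173 genes were. Without WT 2 the count was 4, against 8.54% of varying genes, and without WT 1 it was 9, against 12.1%. Without KO 4 or WT 3 it was 10, against 11.3% and 10.6%.

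In 20 of the 36 varying members every KO array lay above every WT array, against 18.2% of varying genes. In 33 of the 36, KO was higher in all 4 same-numbered pairs of arrays, against 1440 of the 5173 varying genes. Cox6a1, Cox15 and Atp5e were higher in 3 pairs. The median difference was 0.13 over all 45 members and 2.86e-05 over all genes. Over the varying genes alone it was 0.17 for members and 0.01 for all, and 52.3% of varying genes had a positive difference.

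**Figure D1:**
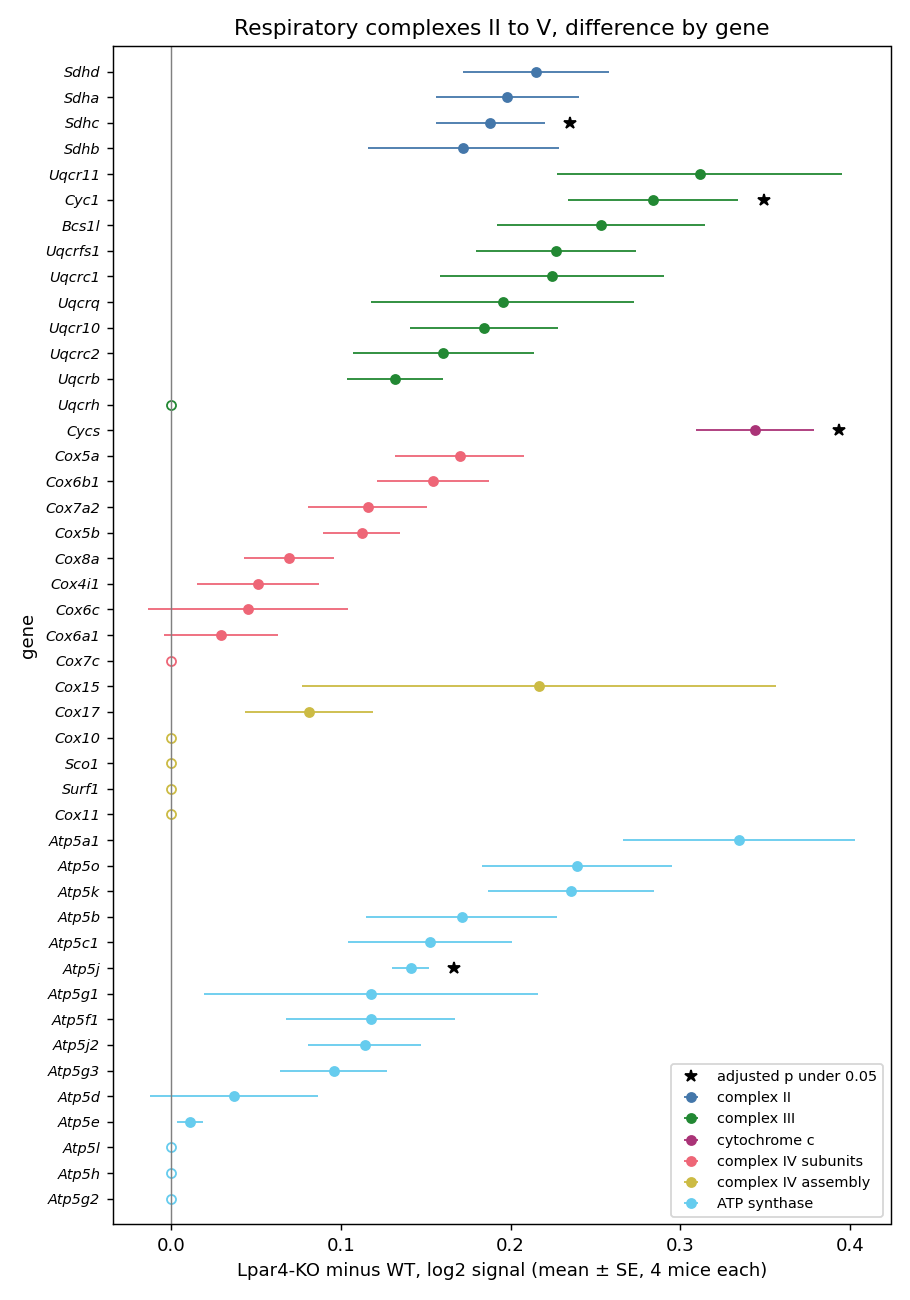
Difference between LPA4-KO and WT inguinal fat in log2 signal (horizontal axis, mean ± SE, 4 mice each) for each of the 45 measured members, coloured by complex; open circles are the 9 near-constant members and stars mark an adjusted p under 0.05 in limma over all genes. All 36 varying members lie to the right of 0, with Cycs at 0.34 and Atp5e at 0.01.

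Promoter sequence of selected members is shown because NRF1 (nuclear respiratory factor 1) and ETS-family factors are known to bind many nuclear genes of the respiratory chain, and these members had large, small and near-zero differences. RefSeq promoter windows of 250 bases before to 50 bases after the start (GRCm38.p6) were found for 37 of the 46 listed genes. Each stretch below is the 120 bases just before an annotated start, 5′ to 3′ on the gene's strand, which is the minus strand in each case. Capitals mark an NRF1 core (GCGCATGCG on either strand, which together can cover 10 bases), an ETS core (CCGGAAG) or a YY1 core (AAGATGGC). Cycs lies at chr6:50566570-50566689, Atp5k at chr5:108434400-108434519, Atp5g2 at chr15:102671048-102671167 and the Atp5j start shown at chr16:84834977-84835096. The 120 bases before the other annotated Atp5j start, at chr16:84835626-84835745, hold none of these cores and are not printed.
Cycs: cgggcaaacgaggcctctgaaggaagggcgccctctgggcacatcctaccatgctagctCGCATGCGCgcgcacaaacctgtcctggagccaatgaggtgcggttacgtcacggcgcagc
Atp5k: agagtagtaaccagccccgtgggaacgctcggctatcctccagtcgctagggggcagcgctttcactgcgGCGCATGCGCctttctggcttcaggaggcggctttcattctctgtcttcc
Atp5g2: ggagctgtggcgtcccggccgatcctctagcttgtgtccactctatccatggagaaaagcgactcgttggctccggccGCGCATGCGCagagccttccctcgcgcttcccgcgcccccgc
Atp5j: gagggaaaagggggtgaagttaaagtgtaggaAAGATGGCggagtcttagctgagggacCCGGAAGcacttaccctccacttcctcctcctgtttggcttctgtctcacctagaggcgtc

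The NRF1 core was present in 7 of the 37 member promoters (18.9%), against 1.95% of the promoters of all 27025 genes in the table. The ETS core was present in 17 (45.9%, against 9.93%) and the YY1 core in 4 (10.8%, against 3.19%). The ERR (estrogen-related receptor) site TCAAGGTCA was found in 2 members, Sdhd and Atp5g3 (5.41%, against 0.466%). SP1 boxes (GGGGCGGGG, 13.5% against 12.9%) and CCAAT boxes (48.6% against 41.1%) stood closer to the share in all genes, and TATAAA was found in 5.41% against 15.7%. All motifs were searched on both strands; the GC content of the windows differed too, with a median of 59% in members and 52.75% in all genes. A match is a description of the letters and not evidence of binding.

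The members with the NRF1 core did not share 1 size of difference. They were Atp5g2, Atp5k, Atp5l, Cox6a1, Cycs, Uqcr11 and Uqcrc1, and their differences ran from -0.00016 in Atp5g2 through 0.03 in Cox6a1 to 0.34 in Cycs, with Atp5g2 and Atp5l near constant. The 17 with the ETS core, Sdhb, Sdhd and Bcs1l among them, ran from 3.88e-05 to 0.31, and 11 of them varied. The 16 measured members with neither core ran from -0.00015 to 0.24, and 14 of them varied.

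Complex II is the only respiratory complex that is also an enzyme of the tricarboxylic acid cycle. All 4 of its subunits had all KO arrays above all WT arrays, against 18.2% of varying genes. Averaged over the 4 genes, the KO arrays measured 10.50 ± 0.056 and the WT arrays 10.31 ± 0.035 (SD, n = 4 each), a difference of 0.19. Sdhc, a membrane anchor of the complex, measured 8.91, 8.75, 8.86 and 8.83 in KO 1 to 4 and 8.65, 8.65, 8.67 and 8.63 in WT 1 to 4. The WT arrays lay within a narrow band, and KO 2 was the lowest KO array. The difference of 0.19 (SE 0.032) had a limma adjusted p of 0.0373 and an exact two-sided permutation p of 0.0286, the smallest that 4 against 4 arrays can give. Its adjusted p was between 0.0325 and 0.109 with 1 array left out, and stayed under 0.05 only without KO 2. Its adjusted p was 0.0236 among varying genes and 0.0542 there with the replicate block. A second Sdhc probe set was near constant, so averaging the probe sets gave 0.09.

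Sdhd, the other membrane anchor, measured 10.42, 10.38, 10.48 and 10.32 in KO 1 to 4 and 10.25, 10.19, 10.19 and 10.12 in WT 1 to 4. KO 4 was the lowest KO array and still lay above WT 1, the highest WT array. The difference was 0.21 (SE 0.043), and its adjusted p was 0.0507 in limma over all genes, 0.0236 among varying genes and 0.0396 there with the block. Sdhb, the iron-sulfur subunit, measured 11.50, 11.29, 11.46 and 11.38 in KO 1 to 4 and 11.27, 11.13, 11.26 and 11.27 in WT 1 to 4. KO 2 came close to the highest WT arrays, and WT 2 lay apart below the other WT arrays. The Sdhb difference was 0.17 (SE 0.056, limma adjusted p = 0.139). Sdha, the flavoprotein that oxidises succinate, differed by 0.20 (limma adjusted p = 0.0581 in the fit of all genes, 0.0284 in that of varying genes and 0.0513 in the latter with the block).

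In complex III, 9 of 10 genes varied, against 28.4% of all genes. In 7 of the 9, every KO array lay above every WT array, against 18.2% of varying genes. The 10 genes of the complex averaged 10.80 ± 0.053 in KO and 10.60 ± 0.046 in WT. The difference was 0.20, and every KO array lay above WT. Cyc1 (cytochrome c1), the heme subunit that delivers electrons to cytochrome c, measured 11.13, 10.96, 11.17 and 11.04 in KO 1 to 4 and 10.81, 10.75, 10.83 and 10.77 in WT 1 to 4. KO 1 and KO 3 were highest, and the lowest KO array lay clear of all WT arrays. The difference was 0.28 (SE 0.050), and limma over all genes gave an adjusted p of 0.0402; the exact permutation p was 0.0286. The adjusted p of Cyc1 was between 0.0399 and 0.103 with 1 array left out, and stayed under 0.05 only without KO 2. Among varying genes it was 0.0141, and 0.0306 with the block.

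Uqcr11, a small subunit, had the largest difference of the complex, 0.31 (SE 0.084). Its values were 11.15, 10.94, 11.12 and 11.16 in KO 1 to 4 and 10.80, 10.62, 10.76 and 10.95 in WT 1 to 4. KO 2 fell just below WT 4, so the groups overlapped. The limma adjusted p was 0.0943 over all genes, 0.0298 among varying genes and 0.0285 there with the block. Uqcrb, the quinone-binding protein of the complex, had the smallest difference among the varying genes of the complex, 0.13 (SE 0.028, adjusted p = 0.0581). It measured 12.90, 12.85, 12.85 and 12.87 in KO 1 to 4 and 12.68, 12.71, 12.76 and 12.80 in WT 1 to 4, with no overlap.

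The Rieske iron-sulfur protein Uqcrfs1 differed by 0.23 and Bcs1l, the chaperone that inserts it into the complex, by 0.25. Neither passed over all genes (limma adjusted p = 0.0548 and 0.0753), and both passed among varying genes with the block (0.0436 and 0.0482). The core subunits Uqcrc1 and Uqcrc2 differed by 0.22 and 0.16, and the small subunit Uqcr10 by 0.18. For all 5 of these genes the KO arrays lay wholly above the WT arrays. Among varying genes Uqcrc1 and Uqcr10 passed without the block (0.0452 and 0.0369) and not with it (0.0510 and 0.0638). Uqcrq differed by 0.20 with overlapping groups.

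Cytochrome c had the largest difference of all members. Cycs, the somatic gene for this mobile carrier between complexes III and IV, measured 11.92, 11.89, 11.91 and 11.84 in KO 1 to 4 and 11.51, 11.55, 11.63 and 11.50 in WT 1 to 4. The KO arrays lay close together, and the highest WT array, WT 3, was far below the lowest of them. The difference was 0.34 (SE 0.035, 95% interval 0.26 to 0.43), or 1.27-fold, with a limma adjusted p of 0.0140. Without KO 3 its adjusted p was 0.0537, and without any other single array it was at most 0.0474. With the replicate block it was 0.0729 over all genes and 0.0246 among varying genes. In the other varying probe sets of Cycs the difference was 0.44 and 0.50, and each of the 3 passed in a fit over all probe sets (adjusted p = 0.0394, 0.0174 and 0.0177 for the brightest). A further Cycs probe set was near constant.

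**Figure D2:**
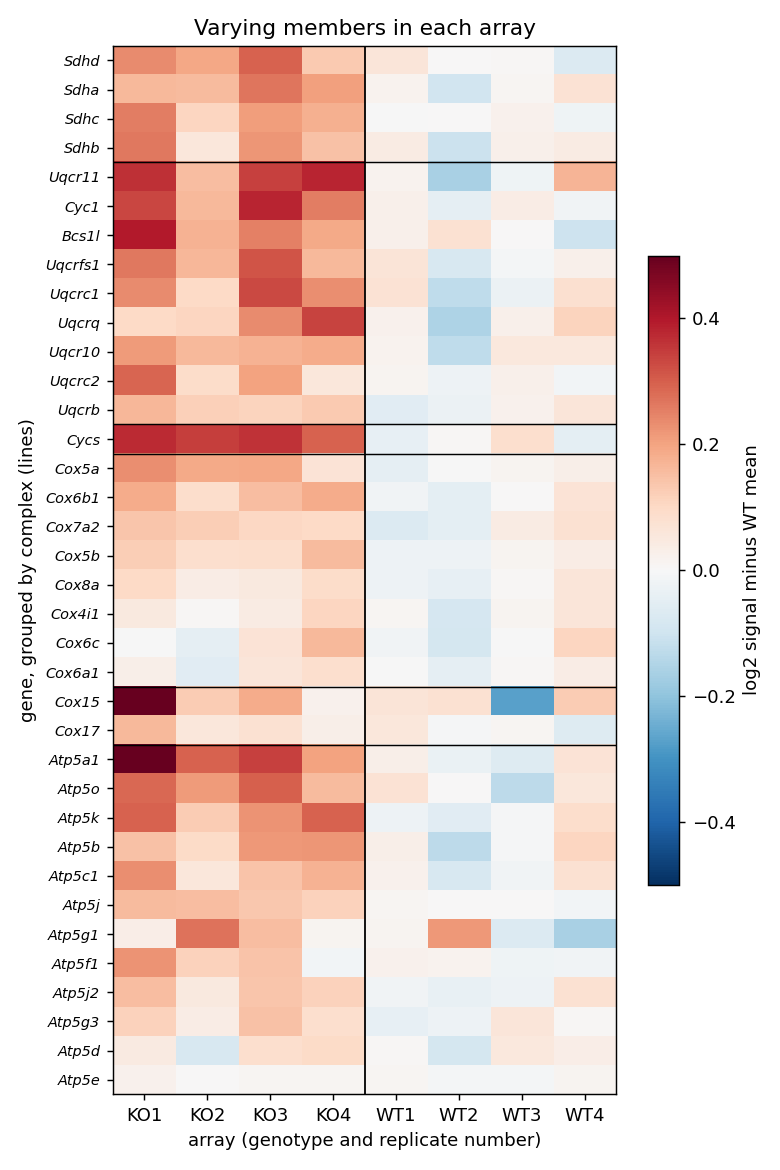
Log2 signal of each of the 36 varying members (rows, grouped by complex) in each of the 8 arrays (columns), with the mean of the 4 WT arrays subtracted; red is above and blue below that mean, and the scale ends at ±0.5. KO columns are red in nearly every gene, KO 2 more faintly than KO 1 and KO 3, and the complex IV subunits are paler than complexes II and III.

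The complex IV subunits differed less. Averaged over 9 measured genes, the KO arrays stood at 11.75 ± 0.025 and the WT arrays at 11.67 ± 0.041. The difference of 0.08 came with overlapping groups, since KO 2 (11.72) lay just below WT 4 (11.72). In each same-numbered pair of arrays the KO mean was the higher. No subunit passed in the fit over all genes (0 of 9, limma), and 2 passed among varying genes, Cox5a and Cox6b1 (adjusted p = 0.0384 and 0.0423), neither of them with the block (0.0856 and 0.0663). Cox5a, a matrix-side subunit, measured 11.84, 11.80, 11.80 and 11.67 in KO 1 to 4 and 11.56, 11.61, 11.62 and 11.63 in WT 1 to 4. KO 4 stood apart from the other KO arrays and lay just above WT 4. The difference was 0.17 (SE 0.038).

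Cox5b, a zinc-binding subunit, measured 12.33, 12.29, 12.29 and 12.36 in KO 1 to 4 and 12.18, 12.18, 12.22 and 12.24 in WT 1 to 4. The groups did not overlap, and the difference of 0.11 (SE 0.023) had an adjusted p of 0.0515 over all genes. Its 4 varying probe sets agreed closely, from 0.11 to 0.13. Cox6b1, which joins the monomers of the enzyme, differed by 0.15 and Cox7a2 by 0.12, both without overlap. Cox8a differed by 0.07 with overlapping groups.

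The remaining subunits showed small differences that overlapped between genotypes. Cox4i1, the regulatory subunit that binds ATP, differed by 0.05 (95% interval -0.04 to 0.14), and Cox6c by 0.05 (-0.10 to 0.19). In both genes KO was higher in all 4 same-numbered pairs. With the replicate block over all genes their limma adjusted p was 0.186 and 0.175. Cox6a1 measured 13.16, 13.07, 13.19 and 13.21 in KO 1 to 4 and 13.13, 13.08, 13.13 and 13.16 in WT 1 to 4. KO 2 was the lowest of the 8 arrays, and the difference was 0.03 (-0.05 to 0.11). These intervals come from the fit without the replicate block. They bound the differences and do not show that the levels were equal. Cox7c was near constant.

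Of the 6 complex IV assembly factors, 4 were near constant: Cox10 and, after it in heme A synthesis and insertion, Surf1, and Sco1 and Cox11 of the copper delivery path. Cox17, the copper chaperone that serves them, measured 10.59, 10.49, 10.51 and 10.46 in KO 1 to 4 and 10.49, 10.43, 10.44 and 10.37 in WT 1 to 4. KO 4 lay below WT 1, and the difference of 0.08 (SE 0.0375) did not pass (limma adjusted p = 0.261). Cox15, which completes heme A, measured 8.30, 7.89, 7.95 and 7.78 in KO 1 to 4 and 7.83, 7.84, 7.49 and 7.89 in WT 1 to 4. KO 1 was far above and WT 3 far below the other 6 arrays, which overlapped. The Cox15 difference was 0.22 (SE 0.140, adjusted p = 0.417), 0.11 without KO 1 and 0.13 without WT 3.

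**Figure D3:**
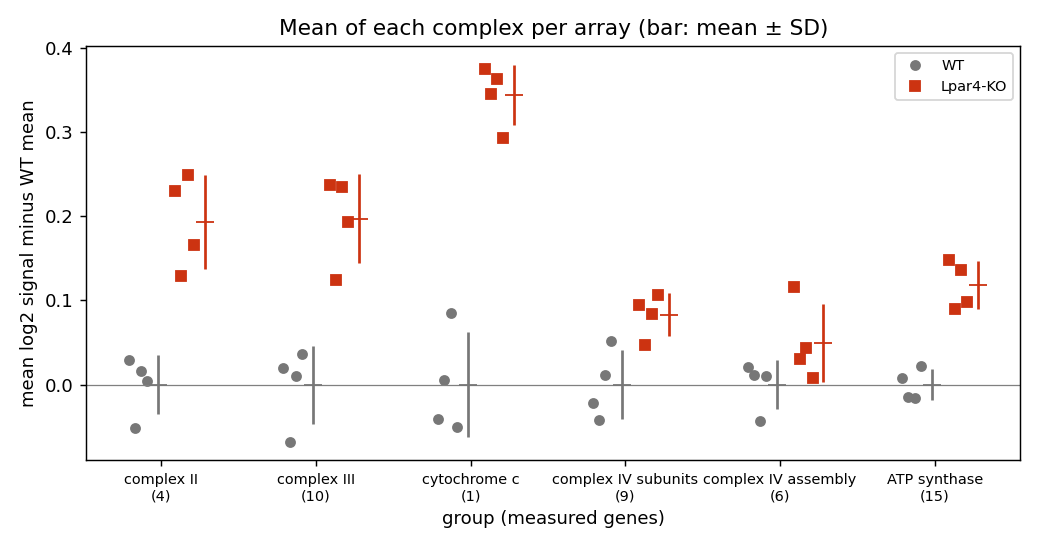
Mean log2 signal of the measured genes of each complex in each array, with the WT mean subtracted (vertical axis); grey circles are the 4 WT and red squares the 4 LPA4-KO arrays, and bars give mean ± SD. KO and WT do not overlap for complexes II and III, cytochrome c and ATP synthase, and overlap for the complex IV subunits and assembly factors.

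The 15 ATP synthase genes averaged 11.28 ± 0.028 in KO and 11.16 ± 0.018 in WT, a difference of 0.12 without overlap. Atp5j, a subunit of the stalk (coupling factor 6), measured 11.03, 11.02, 11.01 and 10.99 in KO 1 to 4 and 10.88, 10.87, 10.87 and 10.85 in WT 1 to 4. Both groups were tightly spaced, and a gap wider than either group separated them. The difference was 0.14 (SE 0.011, 95% interval 0.12 to 0.17), and limma over all genes gave an adjusted p of 0.0125. Without KO 3 the adjusted p was 0.0513, and without any other single array it was at most 0.0435. With the block it was 0.0577 over all genes, and among varying genes 0.0286 without and 0.0707 with the block.

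Atp5a1, the alpha subunit of the catalytic head, had the largest difference of the enzyme. It measured 12.05, 11.84, 11.88 and 11.74 in KO 1 to 4 and 11.57, 11.51, 11.48 and 11.61 in WT 1 to 4. KO 1 was the highest, and no KO array reached down to WT 4. The difference was 0.33 (SE 0.068), and limma over all genes gave an adjusted p of 0.0531, which was 0.0160 among varying genes and 0.0392 there with the block. A second probe set gave 0.12, and the mean of its probe sets, 1 of them near constant, gave 0.15.

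The beta subunit Atp5b, which carries the catalytic sites, differed by 0.17 (SE 0.056, adjusted p = 0.140), with KO 2 below WT 4. Atp5c1, the gamma subunit that turns inside the head, had probe sets of opposite sign: 0.15 in the brightest and -0.23 in a dimmer one, neither passing over all probe sets (adjusted p = 0.152 and 0.154). Which of them follows the Atp5c1 transcript was not tested. Atp5d, the delta subunit, differed by 0.04 with overlapping groups, and KO was higher in all 4 same-numbered pairs. The epsilon subunit Atp5e had the smallest difference of the varying members: 10.87, 10.85, 10.85 and 10.85 in KO 1 to 4 and 10.85, 10.83, 10.83 and 10.86 in WT 1 to 4. Its arrays overlapped, at a difference of 0.01 (SE 0.0074).

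Subunits of the stalk and membrane part ranged from near 0 to 0.24. Atp5o, the oligomycin sensitivity protein at the top of the stalk, differed by 0.24, and Atp5k, which helps dimers of the enzyme to form, by 0.24 as well. In both, every KO array lay above every WT array, and Atp5k passed in both fits of the varying genes (limma adjusted p = 0.0225, and 0.0365 with the block). Atp5o passed there without the block (0.0271) and not with it (0.0655). The 3 varying probe sets of Atp5k gave 0.23 to 0.26. Atp5f1, the b subunit of the stalk, and Atp5j2 of the membrane part differed by 0.12 and 0.11 with overlapping groups, and the stalk subunit Atp5h and the membrane subunit Atp5l were near constant.

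The 3 genes for the c subunit encode the same mature ring protein and were measured separately. Atp5g1 measured 9.12, 9.36, 9.24 and 9.10 in KO 1 to 4 and 9.10, 9.31, 9.02 and 8.93 in WT 1 to 4. Number 2 was highest in both genotypes, the groups overlapped, and the difference was 0.12 (SE 0.098, adjusted p = 0.535). Atp5g3 differed by 0.10 (adjusted p = 0.142), with KO 2 below WT 3. Atp5g2 was near constant at 10.46.

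**Figure D4:**
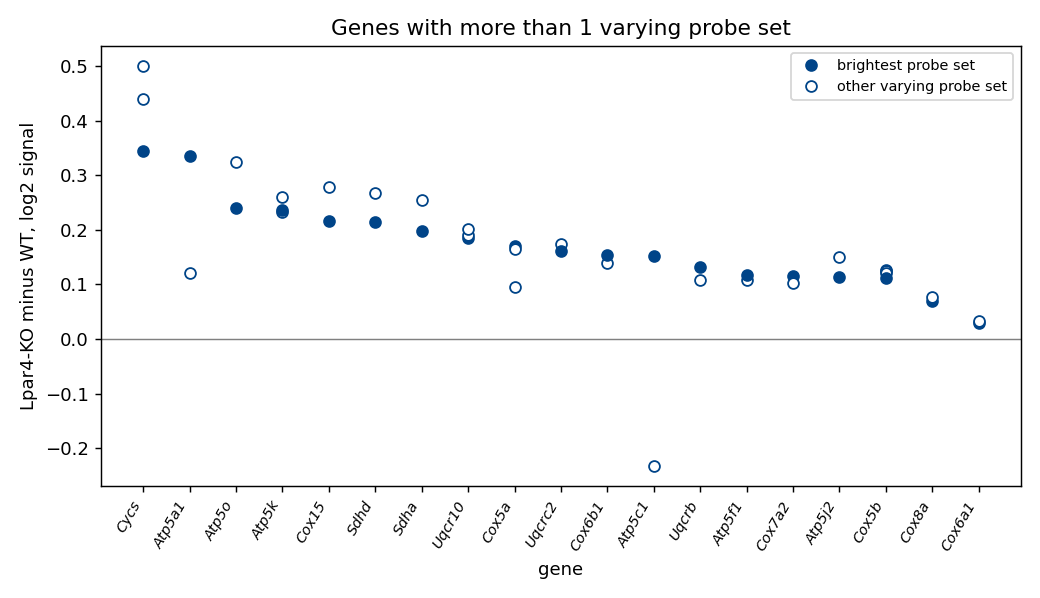
Difference between LPA4-KO and WT in log2 signal (vertical axis) for every varying probe set of the 19 members with more than 1 of them; filled circles are the brightest probe set, which stands for the gene, and open circles the others. In 18 genes all varying probe sets lie above 0, and in Atp5c1 the second one lies at -0.23.

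Of the 96 member probe sets, 61 varied. In 18 of the 19 members with more than 1 varying probe set, all of them had positive differences, Atp5c1 being the exception. The size of the difference went with the signal: the 8 varying members with a mean log2 signal of 12 or more, Cox6a1 and Uqcrb among them, had a median difference of 0.10, and the 28 under 12 a median of 0.19. Over all varying genes the median absolute difference was 0.12 for the 113 at 12 or more and 0.18 for the 5060 under 12. Of the complex IV subunits, Cox4i1, Cox5b, Cox6a1, Cox6b1, Cox6c and Cox7a2 were in the range of 12 or more, and the part of signal in their differences was not tested.

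Other genes of the same machinery are given for comparison, from lists chosen with earlier results known. Over all genes, limma called 2.39% higher and 1.64% lower. Complex I, the NADH dehydrogenase at the head of the chain, had 9 of 34 measured subunits higher and 0 lower in limma over all genes (Ndufb3 0.42, Ndufs1 0.33), with a median difference of 0.17. Of 17 tricarboxylic acid cycle and pyruvate dehydrogenase genes, 5 were higher and 0 lower, with a median of 0.21, Fh1 (fumarate hydratase, the step after complex II) at 0.37 and Mdh2 (malate dehydrogenase) at 0.22. Coenzyme Q synthesis had 3 of 12 higher, Coq7 at 0.50, Coq5 at 0.26 and Coq4, which was near constant, and a median of 0.12. With the replicate block over all genes none of these passed (0 in each list). Of the varying genes, 1 in each list had a negative difference. It was -0.14 in complex I, without overlap between genotypes, -0.02 in the tricarboxylic acid list and -0.06 in the coenzyme Q list. Of the 13 mitochondrially encoded subunits, 0 were matched, and they were not analysed here.

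**Figure D5:**
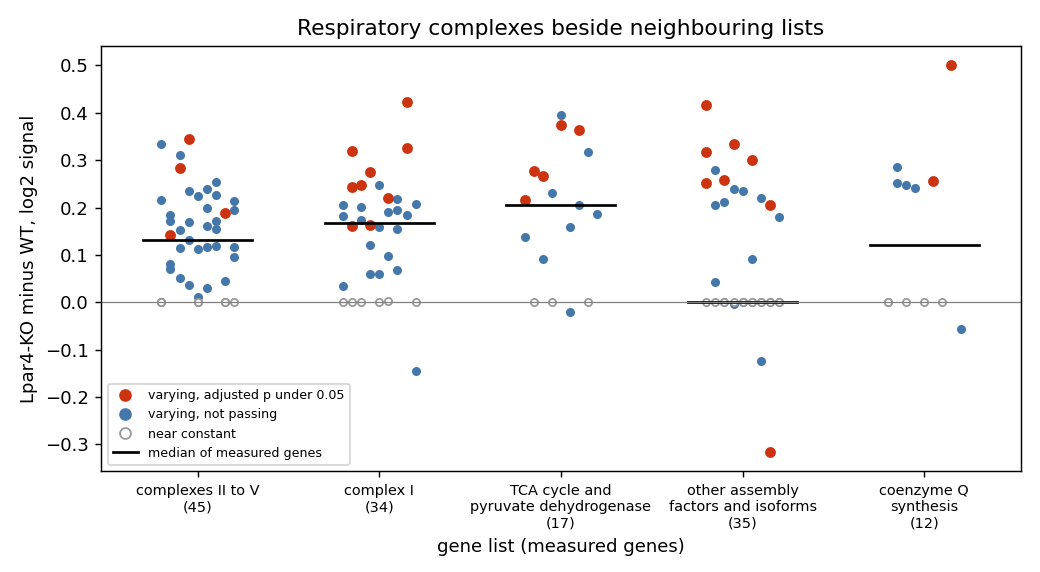
Difference between LPA4-KO and WT in log2 signal (vertical axis) for each measured gene of complexes II to V and of 4 further lists; red points passed limma over all genes, blue points varied without passing, open grey points were near constant, and lines give the median of each list. The medians are 0.13, 0.17, 0.21, 0.00025 and 0.12 from left to right.

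Of 35 further assembly factors and isoforms of the same complexes, 7 were higher and 1 lower in limma over all genes. Of all genes, 2.39% were higher and 1.64% lower. Higher were Sdhaf3 of complex II (0.32), Cox16 (0.25) and Pet100 (0.30) of complex IV, Lrpprc, which stabilises mitochondrial messenger RNA (0.33), and Tmem70 (0.26), Usmg5 (0.21, on the array as Atp5md) and Atp5s (0.42, as Dmac2l) of ATP synthase. Coa6, a copper factor of complex IV, was lower (-0.32). In this list 19 of 35 genes varied, so the median over all 35 was 0.00025 and over the varying ones 0.22. The isoforms kept out of the member list measured 0.54 for Cox8b (SE 0.179, adjusted p = 0.147, and 0.0449 and 0.0301 among varying genes without and with the block) and 0.27 for Cox7a1 (SE 0.267, adjusted p = 0.607), beside 0.07 and 0.12 for their ubiquitous partners Cox8a and Cox7a2.

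In bulk tissue, more cells of a type and more RNA per cell cannot be told apart. The labelled tissue carried adipocyte markers at a mean log2 signal of 12.38 to 12.43 in KO and 12.38 to 12.42 in WT (8 of 10 listed genes measured), and its genes did not move one way. In limma over all genes Adipoq and Retn were higher in KO (0.25 and 0.26), both lost with the block (adjusted p = 0.175 and 0.107). Cidec (0.15, adjusted p = 0.229) and Pnpla2 (0.004) also had positive differences. Lep (-0.38, adjusted p = 0.244), Pparg (-0.08) and Lipe (-0.05) had negative ones, and Fabp4 was near constant. Among varying genes Adipoq and Retn passed without the block (limma adjusted p = 0.0192 and 0.0175), and Lep did not (0.0949). With the block there, Retn and Lep passed (0.0337 and 0.0331), and Adipoq did not (0.0534). The 9 brown or beige markers measured, Cox8b and Cox7a1 among them, averaged 6.84 to 6.98 in KO and 6.75 to 6.91 in WT, a difference of 0.09, with Cidea at 0.11, Ppargc1a at -0.10 and Ucp1 near constant at 6.17. The mean of 16 skeletal muscle markers followed the replicate numbers and not the genotype. It was 8.64, 9.31, 6.47 and 7.14 for KO 1 to 4, and for WT 1 to 4 it was 8.96, 8.73, 6.54 and 6.99, high in numbers 1 and 2 of both. Within numbers 1 and 2 the mean difference over all 45 members was 0.14, and within numbers 3 and 4 it was 0.12. All 36 varying members were positive in both, against 2055 of the 5173 varying genes. Means of Schwann cell markers (6 of 8 measured) did not overlap between genotypes, at 7.93 to 8.42 in KO and 8.53 to 9.10 in WT. Cnp was lower (-0.57, limma adjusted p = 0.0294). Mbp (-1.56), Mal (-0.99) and Pmp22 (-0.54) passed only among varying genes, there with and without the block. S100b (-0.35) did not pass, and Sox10 was near constant. Array controls for 18S rRNA differed by 0.22 to 0.44 in 3 probe sets, with no overlap. Those for pyruvate carboxylase differed by 0.58 to 0.88, also without overlap. Beta-actin controls (-0.13 to -0.09) and Gapdh controls (-0.05 to -0.03) had negative differences with overlapping groups. Blood endothelial markers (8 of 8) averaged 9.12 to 9.40 in KO and 9.32 to 9.61 in WT, with Esam lower (-0.33, limma adjusted p = 0.0381). Pecam1 (-0.61) and Tek (-0.22) passed only among varying genes, with and without the block, and Cdh5 (-0.25) there without it. Cldn5 (-0.33), Kdr (-0.16), Egfl7 (-0.16) and Emcn (-0.01) did not pass. Progenitor and fibroblast markers (7 of 8) averaged 9.94 to 10.15 in KO and 9.35 to 10.12 in WT, with Clec3b higher (0.71, adjusted p = 0.0437). The rest did not pass: Pi16 0.50, Col3a1 0.24, Dpp4 0.07, Col1a1 0.07, Pdgfra 0.03 and Dcn -0.13. Red cell markers (3 of 5) averaged 6.78 to 6.87 and 6.62 to 6.86, and macrophage markers (10 of 10) 9.83 to 9.97 and 8.88 to 10.24. The part of these in the member differences was not tested.

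Array medians ran from 6.73 to 6.74. The 3 Lpar4 probe sets did not move one way: 1 of them was 5.74 to 5.91 in KO and 6.80 to 7.04 in WT, a fall of 1.12 (limma adjusted p = 0.0104 over all probe sets), and the others were higher in KO by 0.71 and 0.53 (adjusted p = 0.145 and 0.128). Where they lie relative to the deleted part is not known here.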

How the data were processed

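Biotin-labelled RNA was made from 100 ng of total RNA per mouse for a 3′ array, per the labels' protocols. The log2 values were made by the authors, who used R 2.14.0 per the submitters' processing notes, and deposited for 45101 probe sets in 8 arrays; that scale is inferred from the range of values (4.93 to 14.3). Details of background correction, normalization, summarization and genome build were not given in the sources used here. Per platform annotation, 34945 probe sets named 1 gene and 932 several, and the latter were left out. The brightest probe set over the 8 arrays stood for a gene.

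KO and WT were compared with limma 3.58.1 (lmFit, eBayes, two-sided) in R 4.3.3, genotype only, adjusted by Benjamini-Hochberg across the 18193 genes, with calls at an adjusted p under 0.05. Single members were also compared with exact two-sided permutation tests. The fit was also run on simulated data with independent noise in each array. Those data held no shared replicate numbers, so the run cannot show how the fit behaves where arrays deviate together. Promoter windows came from RefSeq (GRCm38.p6).

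To see whether numbers pair arrays, each array's deviations from its genotype mean were correlated over 18193 genes. Same-numbered arrays gave 0.315, 0.486, 0.189 and 0.244, all above the chosen limit of 0.1. The numbers were therefore used as a block in alternative fits, while the main fit used genotype only. This use comes from the data alone, since the labels do not say what a number shares. The best match of KO 3 was WT 4 (0.364), and that of KO 4 was WT 3 (0.266). Alternatives covered the choice of probe set, the genes tested, normalization, the variance model, the replicate block, numbers 1 and 2 or 3 and 4 alone and leaving out each array. The varying-gene fits with the block or without single arrays were chosen after seeing the data.

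The members and lists were chosen with earlier results of these data known. Values by array are given for members that passed over all genes and, in each complex, for those with the largest and smallest difference and the smallest p; core subunits are always described. Values by array for Atp5g1 fall under that last provision. Other genes are named from the lists where they passed or were the largest, and Cox7a1 and Cox8b as named isoforms.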

Additional observations from a re-analysis of the deposited data

Results flagged for a closer look

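Of 84 groups of 4 arrays checked, covering members and complex means, 3 held an array whose gap to its neighbour took up most of the group's range; chance gives this in about 1 in 20 groups. In Sdhb, WT 2 was low at 11.13, with the other WT arrays between 11.26 and 11.27. Without WT 2 the Sdhb difference was 0.14 in place of 0.17. In Cox15, WT 3 was low at 7.49, with the others between 7.83 and 7.89. The mean of the complex IV assembly factors was low in the same array, at 8.39 against 8.44 to 8.45; Cox15 is 1 of its 6 genes. Without WT 3 the difference of that mean was 0.04 in place of 0.05.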

How the results depend on the processing

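Over all genes 733 were called in either direction (434 higher) and 4 members higher. Varying genes only gave 1402 genes (769 higher) and 16 members, the genes above the median signal 868 (524 higher) and 14 members, quantile normalization 584 (354) and 8, and scaling arrays to the mean of varying genes 864 (488) and 9. The replicate block gave 0 genes and 0 members (3703 genes at an unadjusted p under 0.05, against 4172 without it), numbers 1 and 2 only and numbers 3 and 4 only 0 of each, and leaving out 1 array 10 to 253 genes and 0 to 4 members. Over varying genes the 16 members became 8 with the replicate block and 3 to 14 with 1 array left out. The cause was not tested. With quantile normalization or scaling all 36 varying members stayed positive.

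The mean difference of ATP synthase moved from 0.12 to 0.09 with averaged probe sets, 0.07 with plain-suffix probe sets and 0.15 over varying genes, that of cytochrome c to 0.50 with plain-suffix probe sets, and that of complex IV assembly from 0.05 to 0.15 over varying genes. Atp5c1 turned to -0.0403 with averaged and -0.23 with plain-suffix probe sets, and Cox5b (-8.21e-06), Cox17 (-1.15e-05), Uqcrq (0.00012, from 0.20) and Atp5g1 (0.00010, from 0.12) moved onto near-constant probe sets there. The other varying members kept their sign under every alternative run for them; genes that are not members were not compared across the alternatives. Near-constant probe sets and 4 arrays a genotype limit what can be seen.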
